A study of Mus musculus with 9 samples.

Results

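The Itm2 family of integral membrane proteins was followed across 9 arrays of mouse 3T3 fibroblasts. Its members, *Itm2a*, *Itm2b* and *Itm2c*, were the genes with those symbols, and each had 1 probe set annotated to it alone, so that 3 of 19938 genes with a single symbol were described. The groups were Trap-80 knock-down cells given TNF-α at 5 ng/ml for 1 h (n = 3 arrays), wild-type cells stimulated in the same way (n = 3) and wild-type cells left unstimulated (n = 3), each array with total RNA of an independent culture. The knock-down cells stably expressed a hairpin RNA against Trap-80, a subunit of the Mediator complex, which links transcription factors to RNA polymerase II, and the cells called wild type carried an irrelevant hairpin. The study describes its lines as clones, a single one for each hairpin, so that differences between clones and the effect of losing Trap-80 cannot be told apart. Unstimulated knock-down cells were not analysed here, so that a difference at rest and a different response to TNF-α cannot be told apart either. The family was chosen by measured values, namely the knock-down difference of *Itm2a*, the lowest of all probe sets, and every value of the members in the comparisons that hold the knock-down arrays is therefore given as a description, with no test.

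Itm2 proteins are small glycoproteins that cross the membrane once, with a BRICHOS domain, a fold that acts as a chaperone, on the outer side. The best known is the product of *Itm2b* (Bri2): furin releases a short peptide from its end, ADAM10 sheds the BRICHOS domain, and the signal peptide peptidase-like proteases SPPL2a and SPPL2b cleave the remainder within the membrane. In humans, mutations that lengthen the released peptide cause familial British and Danish dementia, and the human products of *ITM2B* and *ITM2C* bind the amyloid precursor protein. *Itm2a* was first described in mouse cartilage and bone precursors and is also known from muscle precursors and activated T cells, where it is a target of the transcription factor GATA3.

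The promoters of the members are shown because the comparisons ask about transcription through NF-κB and Mediator. Each sequence runs from 250 bases before to 50 bases after the annotated start site, read 5′ to 3′ in the direction of the gene (RefSeq, build GRCm38.p6), and all 3 members matched a row. Capitals mark the GC box (GGGCGG), the GATA site AGATAA and the core of the cAMP response element (TGACG), each on either strand.
*Itm2a*, chrX:107403311-107403610, - strand: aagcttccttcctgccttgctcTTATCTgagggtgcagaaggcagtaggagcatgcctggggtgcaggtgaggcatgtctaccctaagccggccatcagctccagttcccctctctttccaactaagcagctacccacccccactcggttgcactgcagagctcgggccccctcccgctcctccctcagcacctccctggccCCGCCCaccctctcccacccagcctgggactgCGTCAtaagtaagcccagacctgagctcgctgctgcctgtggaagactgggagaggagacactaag
*Itm2b*, chr14:73385240-73385539, - strand: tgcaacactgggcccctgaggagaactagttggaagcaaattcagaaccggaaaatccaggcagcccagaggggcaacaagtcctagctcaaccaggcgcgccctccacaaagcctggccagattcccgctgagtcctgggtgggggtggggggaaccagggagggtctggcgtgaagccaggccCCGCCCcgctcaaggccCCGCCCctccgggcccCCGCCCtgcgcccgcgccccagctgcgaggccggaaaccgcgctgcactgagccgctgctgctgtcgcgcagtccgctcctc
*Itm2c*, chr1:85894260-85894559, + strand: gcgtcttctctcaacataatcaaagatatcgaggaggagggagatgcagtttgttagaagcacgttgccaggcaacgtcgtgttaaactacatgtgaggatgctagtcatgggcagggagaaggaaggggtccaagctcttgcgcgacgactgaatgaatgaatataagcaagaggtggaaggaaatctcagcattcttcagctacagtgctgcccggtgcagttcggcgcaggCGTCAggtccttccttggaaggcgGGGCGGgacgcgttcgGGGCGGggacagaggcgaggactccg
The GC box, a binding site of Sp1, occurred 1 time in the *Itm2a* window, 3 times in that of *Itm2b* and 2 times in that of *Itm2c*, and 35.7% of 32841 promoter windows of the same length held it. The GATA site was present only in the *Itm2a* window among the members, and 11.2% of all windows held it. The core of the cAMP response element lay 16 bases before the start site in both the *Itm2a* and the *Itm2c* window, and 20.8% of all windows held it. A loose κB-like motif, GGGNNNNNCC, searched on both strands, matched 1 time in the *Itm2a* window, 3 times in that of *Itm2b* and not in that of *Itm2c*, against 50.8% of all windows. The *Itm2a* match and 2 of the 3 *Itm2b* matches overlap a GC box. No window of a member held the TATA box TATAAA, which 13.6% of all windows held. The *Itm2b* window had 69.0% G and C and 21 CpG dinucleotides, the *Itm2c* window 55.3% and 20, and the *Itm2a* window 62.0% and 7, where the median window had 52.7% and 7. These matches describe letters and were not tested for binding.

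Signals are the log2 values deposited by the authors from RMA, which corrects background, scales the arrays to one another and joins the probes of a transcript into 1 value, so that 1 unit is a doubling. The probes of different genes differ in brightness, and the level of a member is not compared with that of another. Array medians lay between 4.47 and 4.59 and correlations between arrays were 0.981 to 0.992. *Med17*, which encodes Trap-80, had signals of 6.35, 6.22 and 6.17 in stimulated knock-down cells, against 7.98, 7.93 and 7.77 in stimulated wild-type cells and 8.10, 8.09 and 7.89 in unstimulated wild-type cells. Its knock-down arrays lay below every wild-type array, at 32.0% of the stimulated wild-type signal (limma, adjusted p = 4.8e-05). The study itself reports a stronger reduction of this mRNA by quantitative PCR, and no Trap-80 protein detectable by western blotting.

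*Itm2a* had signals of 3.98, 3.56 and 4.55 on the 3 arrays of stimulated knock-down cells. In stimulated wild-type cells it had 8.29, 7.25 and 7.97, and in unstimulated wild-type cells 8.30, 7.33 and 7.67. All knock-down arrays were low and all wild-type arrays were high, with or without TNF-α, and the lowest stimulated wild-type array lay 2.69 units above the highest knock-down array. The means were 4.03 ± 0.50 in stimulated knock-down cells (SD, n = 3), 7.83 ± 0.53 in stimulated wild-type cells and 7.77 ± 0.49 in unstimulated wild-type cells. The knock-down difference, stimulated knock-down minus stimulated wild type, was -3.80 (standard error 0.34 from limma), a signal 13.9-fold lower or 7.18% of that in stimulated wild-type cells. It was the lowest of the differences of 23410 probe sets, which is how the gene was chosen. Knock-down and stimulated wild-type arrays were likewise free of overlap in 20.9% of all probe sets, in either direction.

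**Figure D1:**
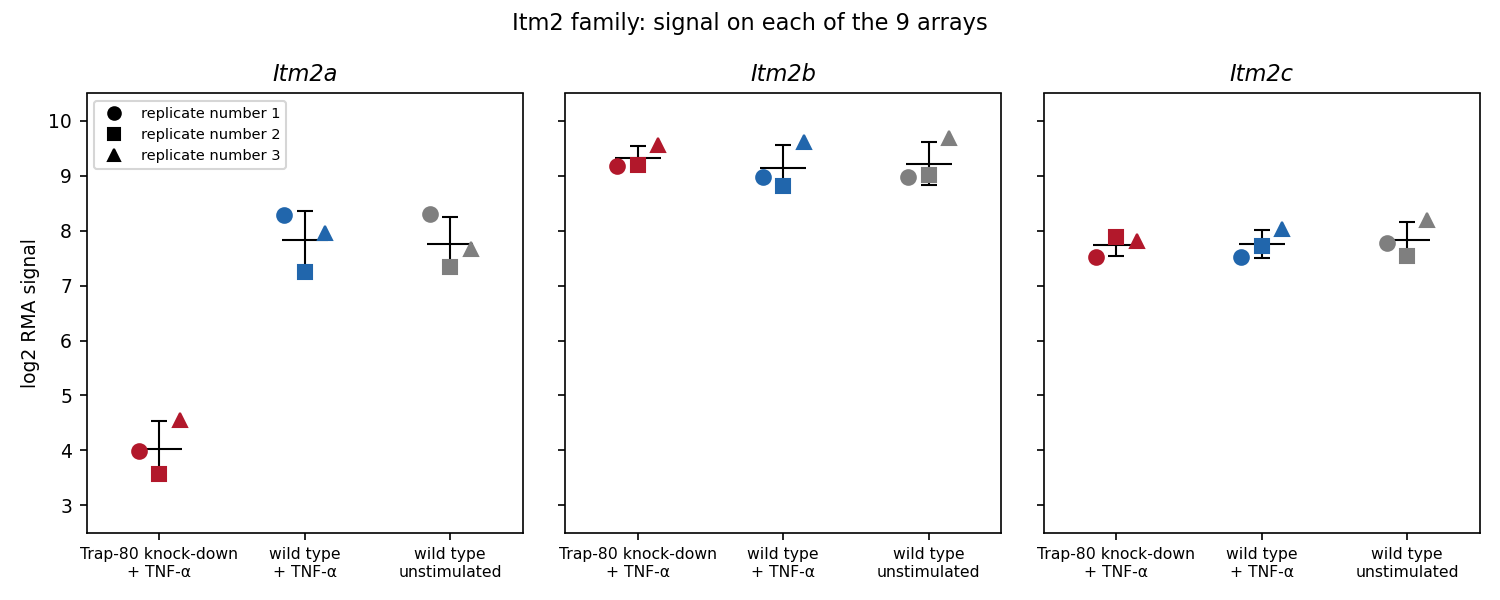
Log2 RMA signal (vertical axis) of each Itm2 member on every array, with the groups along the horizontal axis, a marker shape for each replicate number, and a line and bar for the mean ± SD of 3 arrays. The 3 knock-down arrays of *Itm2a* lie between 3.56 and 4.55, below all 6 wild-type arrays, while the groups overlap in *Itm2b* and *Itm2c*.

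The low *Itm2a* signal of the knock-down cells lay near the level of genes that fibroblasts are not known to use. Over 1035 probe sets of olfactory receptor genes, which serve smell in nasal neurons, the median in stimulated knock-down cells was 2.44 and the 95th percentile 3.83. The *Itm2a* mean of 4.03 was above 96.6% of these probe sets, whereas in stimulated wild-type cells its mean lay above all of them. In RNA from whole cultures, fewer cells that express a gene and less RNA per cell cannot be told apart.

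**Figure D2:**
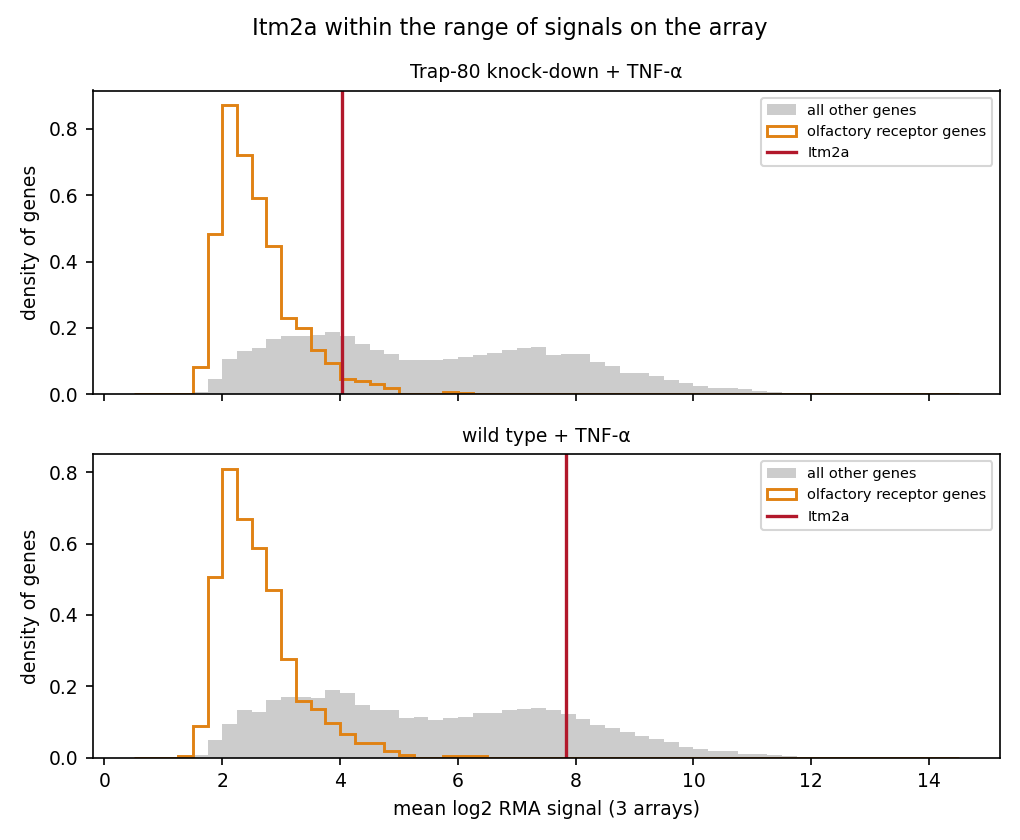
Distribution of mean log2 signals over 3 arrays (horizontal axis) for olfactory receptor genes (orange outline) and all other genes (grey), each scaled to unit area (vertical axis, density of genes), in stimulated knock-down (upper panel) and stimulated wild-type cells (lower panel). The red line marks *Itm2a*, at 4.03 in the upper panel, in the upper tail of the olfactory receptor genes, and at 7.83 in the lower panel, above all of them.

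*Itm2b* had signals of 9.19, 9.19 and 9.57 in stimulated knock-down cells. In stimulated wild-type cells it had 8.97, 8.81 and 9.63, and in unstimulated wild-type cells 8.97, 9.02 and 9.68. The groups overlapped throughout, and the array numbered 3 was the highest in each group. The knock-down difference was 0.18 (standard error 0.24), from means of 9.32 ± 0.22 in stimulated knock-down and 9.14 ± 0.43 in stimulated wild-type cells (SD, n = 3 each).

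*Itm2c* (Bri3), the paralog of *Itm2b* known mainly from brain, had signals of 7.52, 7.88 and 7.82 in stimulated knock-down cells. In stimulated wild-type cells it had 7.53, 7.73 and 8.04, and in unstimulated wild-type cells 7.77, 7.54 and 8.19. The groups overlapped here too, and the array numbered 3 was the highest of both wild-type groups but not of the knock-down. The knock-down difference was -0.02 (standard error 0.18), from means of 7.74 ± 0.19 in stimulated knock-down and 7.76 ± 0.26 in stimulated wild-type cells (SD, n = 3 each).

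Against unstimulated wild-type cells, stimulated knock-down cells differed by -3.73 (standard error 0.34) in *Itm2a*, 0.09 (standard error 0.24) in *Itm2b* and -0.09 (standard error 0.18) in *Itm2c*. This comparison uses the same knock-down arrays as the one above and is no second measurement of them. The *Itm2a* arrays were again free of overlap, as were those of 23.4% of all probe sets in either direction.

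The response of wild-type cells to TNF-α, the comparison that asks which genes NF-κB signalling changes within 1 h, was tested for the members. It shares the stimulated wild-type arrays with the knock-down difference that chose the family, so that its values, those of *Itm2a* above all, are not independent of that choice. None of the 3 passed the limma test at an adjusted p under 0.05, a threshold that 0.115% of the tested probe sets passed. *Itm2a* differed by 0.07 between stimulated and unstimulated wild-type cells (95% interval -0.70 to 0.83, adjusted p = 0.97), *Itm2b* by -0.09 (95% interval -0.64 to 0.46, adjusted p = 0.95) and *Itm2c* by -0.07 (95% interval -0.49 to 0.35, adjusted p = 0.94). The intervals leave room for changes of up to 0.83 on the log2 scale in *Itm2a*. The smallest change that the test could have detected was not worked out. With arrays of the same number set against each other, *Itm2a* differed by -0.01, -0.08 and 0.30, *Itm2b* by 0.00, -0.21 and -0.06, and *Itm2c* by -0.24, 0.19 and -0.15. The pairs of each member differed in direction among themselves, though the first pair of *Itm2b* was close to no difference, at 0.0036.

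**Figure D3:**
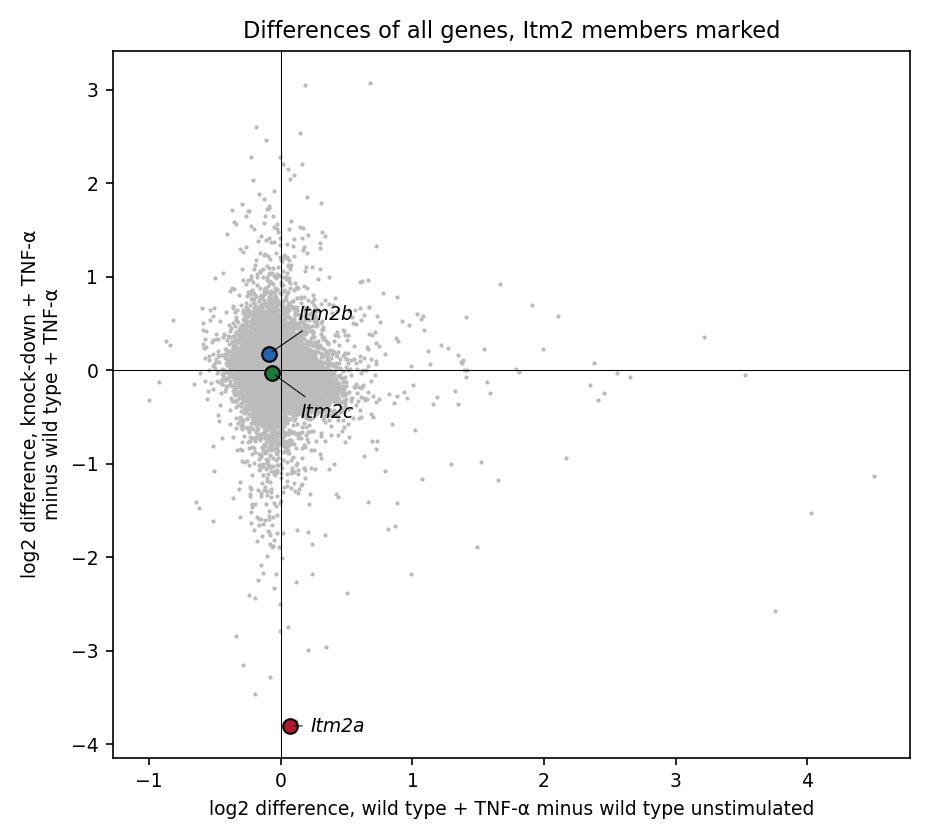
Each point is a gene with a single symbol, with its TNF-α response in wild-type cells along the horizontal axis and its knock-down difference along the vertical axis, both as log2 differences of the means of 3 arrays. *Itm2a* lies at 0.07 and -3.80, at the bottom of the plot and near 0 on the horizontal axis, and *Itm2b* and *Itm2c* lie among the bulk of genes.

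The members varied more between replicate arrays than most probe sets did. The SD within groups, pooled over the 3 groups, was 0.51 for *Itm2a*, 0.36 for *Itm2b* and 0.27 for *Itm2c*, where the median probe set had 0.13, and it exceeded that of 99.5%, 97.8% and 92.4% of the probe sets. In *Itm2a* the array numbered 2 was the lowest of each group, with a mean deviation of -0.50 from the group means, and in *Itm2b* the array numbered 3 lay 0.40 above them. Deviations from the group means of *Itm2b* and *Itm2c* correlated at 0.79 over the 9 arrays, those of *Itm2a* and *Itm2b* at 0.26 and those of *Itm2a* and *Itm2c* at 0.0047. These correlations rest on 9 arrays that share group means and replicate numbers, and they are given as a description.

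The genes whose signal ran most like that of *Itm2a* over the 9 arrays were *Chrdl1*, a chordin-like antagonist of bone morphogenetic proteins (Pearson r = 0.994), *Foxp1*, a forkhead transcription factor (0.992), *Npnt*, the matrix protein nephronectin (0.989), *Slc38a4*, an amino acid transporter (0.988), and *Cyba*, a subunit of the NADPH oxidase (0.988). All were lower in the knock-down, by differences of -1.86, -0.49, -1.56, -1.11 and -1.81 in that order, each smaller in size than that of *Itm2a*. The direction follows largely from picking genes by their likeness to *Itm2a*. The smaller size follows from the choice of *Itm2a* by its extreme difference. For *Itm2a*, a correlation over all arrays is set mostly by the gap between the groups, and 366 of 19937 genes reached an r above 0.9 with it. Deviations from the group means correlated with those of *Itm2a* at 0.90, 0.91, 0.88, 0.82 and 0.75 in the same order. For *Itm2b* the most similar genes were *Mtmr11*, a myotubularin-related protein (0.987), *Flot1*, the lipid raft protein flotillin-1 (0.982), *Arfgap3*, a GTPase-activating protein of the Golgi (0.981), *Adh7*, an alcohol dehydrogenase (0.981), and *Cpe*, carboxypeptidase E (0.979), and for *Itm2c* they were *Spsb2* (0.975), *Cdkn2a* (0.962), *Olfr958* (0.959), *Dnpep* (0.956) and *Slc35f5* (0.951). The knock-down differences of these 10 genes lay between -0.09 and 0.19. Their deviations from the group means correlated at 0.987 to 0.996 with those of *Itm2b* and at 0.957 to 0.987 with those of *Itm2c*, so that these likenesses come mostly from spread between replicate arrays. *Olfr958* had means of 3.06 in stimulated knock-down and 3.12 in stimulated wild-type cells, at the level of the olfactory receptor genes.

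**Figure D4:**
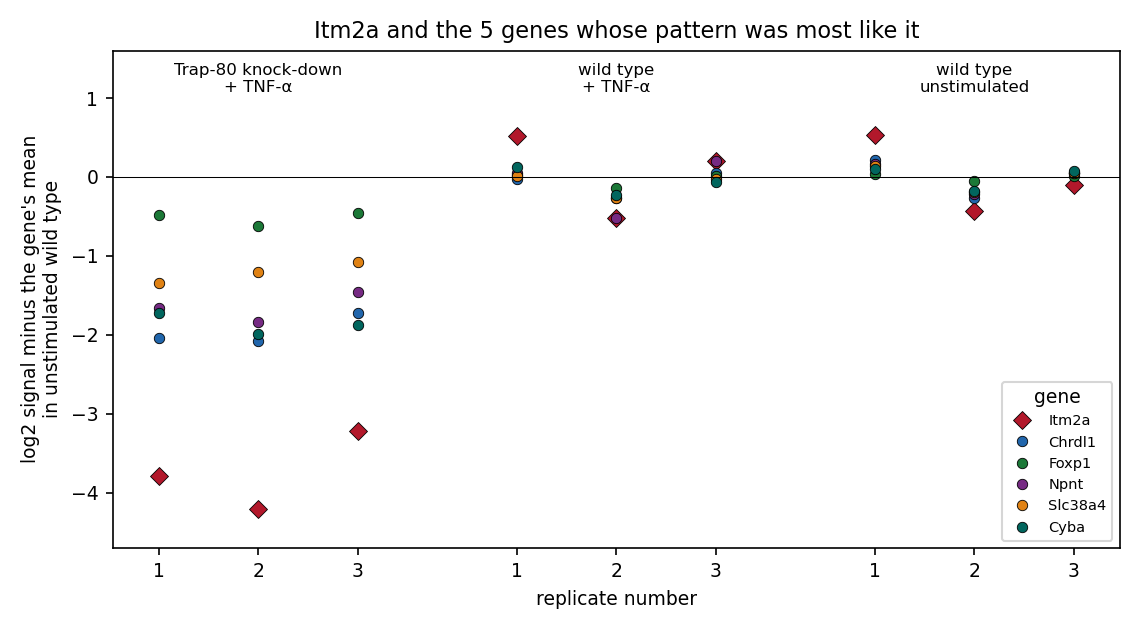
Log2 signal minus each gene's mean in unstimulated wild-type cells (vertical axis) on the 9 arrays, by group and replicate number (horizontal axis), for *Itm2a* (diamonds) and the 5 genes most correlated with it (circles). All lie below 0 on every knock-down array, *Itm2a* lowest, and scatter around 0 in wild-type cells with or without TNF-α. The low knock-down values and the place of *Itm2a* follow largely from how these genes were chosen.

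The genes beside the members on the chromosomes were set against them, taking the nearest 3 measured protein-coding genes on either side in the RefSeq gene order. Of the 6 neighbours of *Itm2a* on chromosome X, *2610002M06Rik* rose in the knock-down, at 6.95 against 6.38 in stimulated wild-type cells (difference 0.58, adjusted p = 0.018 from limma), and none fell. That call was lost in a fit of the 6 arrays compared, and without stimulated wild-type array 3 or knock-down array 2 or 3 (adjusted p up to 0.074). In this comparison 3.36% of all probe sets rose and 2.60% fell. In stimulated wild-type cells 4 of the 6 lay below 3.97, at the level of the olfactory receptor genes, and a fall of these could hardly have been seen. The purinergic receptor gene *P2ry10b* differed by -0.43 (adjusted p = 0.18) and *Gpr174*, the neighbour next to *Itm2a*, was among the low ones, at signals of 1.96 in knock-down and 2.03 in stimulated wild-type cells. None of the 6 neighbours of *Itm2b* on chromosome 14, which include *Med4*, another Mediator subunit, and the tumour suppressor *Rb1*, passed the test, with differences of -0.16 to 0.28. None of the 6 neighbours of *Itm2c* on chromosome 1 passed, with differences of -0.12 to 0.05, and 4 of these lay below 3.97.

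Among genes of related function, 101 of 105 listed genes in 8 lists were measured, and 1395 probe sets, 5.96% of those tested, passed the knock-down test in either direction. None of the 7 other BRICHOS-domain genes passed (median difference -0.03, against -0.02 over all probe sets), but 5 of them lay in stimulated wild-type cells below 3.97, the 95th percentile of the olfactory receptor probe sets there, so that a fall could hardly have been seen. They include *Cnmd* and *Tnmd*, chondromodulin and tenomodulin of cartilage and tendon, and *Sftpc*, surfactant protein C of the lung. Of 8 proteases that process Itm2 proteins or are close relatives of those that do, *Pcsk6*, a proprotein convertase related to furin, fell to 5.15 in stimulated knock-down cells, against 5.88 in stimulated wild-type cells (difference -0.73, standard error 0.14, adjusted p = 0.015), and none rose. *Furin* differed by 0.24 (adjusted p = 0.15), *Adam10* by 0.26 (adjusted p = 0.22) and *Sppl2b* by -0.17 (adjusted p = 0.62). None of 10 genes of the amyloid precursor family and its secretases passed, with *App* itself at -0.23 (adjusted p = 0.48).

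The human product of *ITM2A* is known to bind the V-ATPase, the proton pump of lysosomes, and to affect autophagy. Of 16 V-ATPase subunit genes, *Atp6v1d* (0.64, adjusted p = 0.038), *Atp6ap2* (0.54, adjusted p = 0.030) and *Atp6v1c1* (0.34, adjusted p = 0.020) rose and *Atp6v1e1* fell. *Atp6v1e1*, which encodes subunit E of the part outside the membrane, had 7.36 in stimulated knock-down and 8.44 in stimulated wild-type cells (difference -1.08, standard error 0.11, adjusted p = 7.9e-04). The list's median difference was 0.18. None of 20 autophagy genes passed (median -0.01). With the replicate number as a block, 5 V-ATPase genes rose and 2 fell, and again no autophagy gene passed.

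Of 17 chondrogenic genes, *Col2a1*, the main collagen of cartilage, fell to 6.58 in stimulated knock-down cells, against 7.62 in stimulated wild-type cells (difference -1.04, standard error 0.16, adjusted p = 0.0050), and none rose (list median -0.10). In stimulated wild-type cells 3 of the 17 lay below 3.97. With the replicate block, the cartilage proteoglycan *Acan* (-0.56, adjusted p = 0.0094, against 0.16 without it) and the transcription factor *Sox5* (-0.41, adjusted p = 0.047, against 0.067) fell too. None of 15 myogenic genes passed, 6 of which lay below 3.97 in stimulated wild-type cells, and with the block *Mef2a*, a muscle transcription factor, rose (0.46, adjusted p = 0.032, against 0.053). Of 8 GATA factors and their cofactors, *Gata2* rose to 7.58 in knock-down cells, against 6.78 in stimulated wild-type cells (difference 0.79, standard error 0.14, adjusted p = 0.0091), as did the cofactor *Zfpm2* (0.43, adjusted p = 0.041), and none fell. *Gata3* differed by 0.18 (adjusted p = 0.74), by 0.67 between stimulated knock-down and unstimulated wild-type cells (adjusted p = 0.10, arrays not overlapping), and by 0.49 between stimulated and unstimulated wild-type cells (unadjusted p = 0.0499, adjusted p = 0.70). With the block, the secretase gene *Bace1* also fell (-0.37, adjusted p = 0.049, against 0.40). Calls were lost when arrays were left out singly for *Pcsk6* (stimulated wild-type array 1 or 2 or knock-down array 1 or 3, adjusted p up to 0.069), *Atp6v1c1* (stimulated wild-type array 2 or 3 or knock-down array 1 or 3, up to 0.078), *Atp6ap2* (array 1 or 2 of either wild-type group or knock-down array 2 or 3, up to 0.11), *Atp6v1d* (any unstimulated array, stimulated wild-type array 1 or 2 or knock-down array 2 or 3, up to 0.14) and *Zfpm2* (any stimulated array or unstimulated array 1, up to 0.15). The calls of *Pcsk6*, *Atp6ap2* and *Atp6v1d* were also lost in a fit of the 6 arrays compared, those of *Atp6ap2*, *Atp6v1d* and *Zfpm2* with all deposited probe sets tested, and that of *Zfpm2* after quantile normalization.

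**Figure D5:**
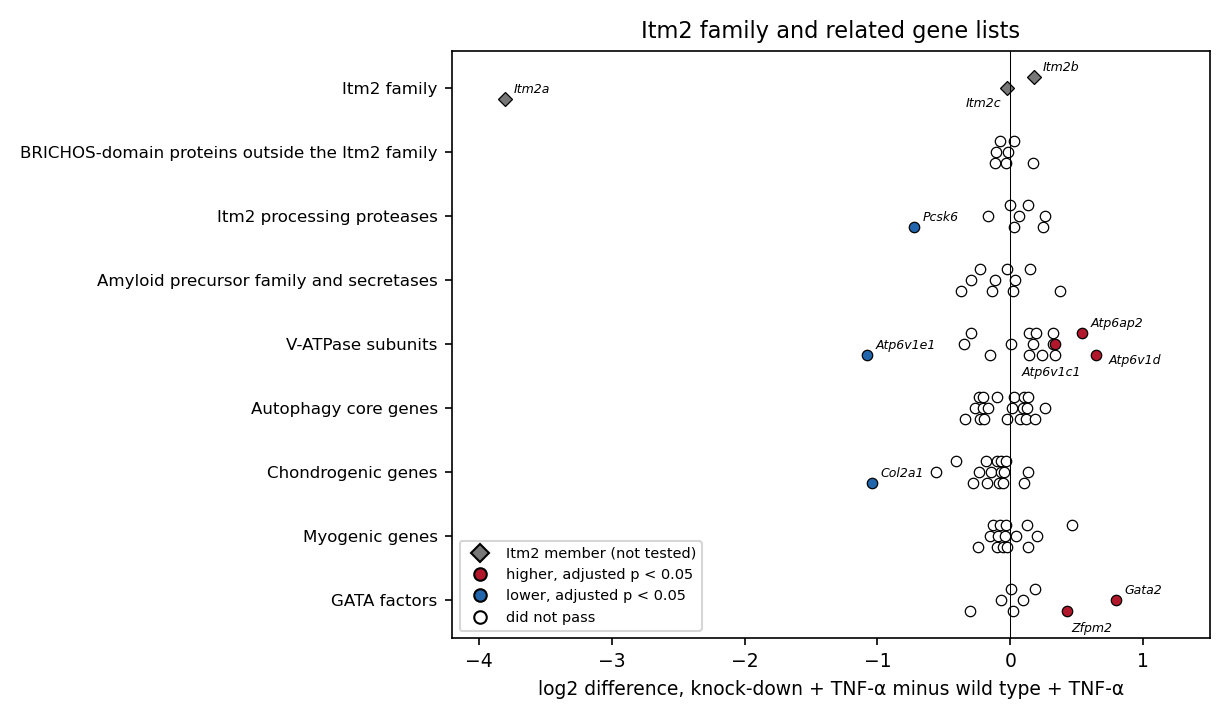
Knock-down difference on the log2 scale (horizontal axis) for the Itm2 members and the measured genes of 8 related lists (rows), with filled circles for genes that passed the limma test at an adjusted p under 0.05. *Itm2a* at -3.80 was chosen as the lowest of all probe sets, so its place below every listed gene was set by that choice. The lowest listed gene is *Atp6v1e1* at -1.08.

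None of the 101 listed genes passed the test for the TNF-α response of wild-type cells, with or without the replicate block, and 13 did at an unadjusted p under 0.05, which 7.10% of all probe sets reached. Between stimulated knock-down and unstimulated wild-type cells, where 8.25% of all probe sets passed, 10 of them did. Among them were *Pcsk6*, *Atp6v1c1*, *Atp6v1d*, *Atp6v1e1*, *Col2a1*, *Gata2* and *Zfpm2*, each in the direction given above. Of 16 alternative settings, *Gata2* kept this call in 7 (adjusted p up to 0.15), *Atp6v1d* in 9 (up to 0.13) and *Pcsk6* in 10 (up to 0.11). *Atp6v1c1* kept it in 13 (up to 0.064) and *Zfpm2* in 15 (up to 0.056), and *Atp6v1e1* and *Col2a1* kept it in all 16. *Atg7*, which encodes an enzyme needed to form autophagosomes, fell to 7.05 in stimulated knock-down cells, against 7.41 in unstimulated wild-type cells (-0.36, adjusted p = 0.018). The *Atg7* call was lost in a fit of the 6 arrays compared, and without unstimulated array 1 or knock-down array 1 (adjusted p up to 0.065). *Mef2a* rose (0.64, adjusted p = 0.0098) and *Sox9*, a transcription factor of cartilage, fell (-0.37, adjusted p = 0.021). The *Sox9* call was lost in a fit of the 6 arrays compared, after quantile normalization, and without knock-down array 1 or 3 (adjusted p up to 0.076).

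Fibroblast markers were judged by their mean signal over the 9 arrays. All 8 lay above 3.89, the 95th percentile of the olfactory receptor probe sets over the 9 arrays, with *Col1a1*, *Col1a2* and *Vim* at means of 12.6, 12.4 and 12.7. Of the markers of other cell types, 4 of 5 epithelial, 3 of 4 neuronal, 3 of 4 chondrocyte, 2 of 4 muscle, 2 of 4 adipocyte, 2 of 5 measured leukocyte and 0 of 4 endothelial genes lay above that level. The brightest of these were the chondrocyte *Sox9* at 8.79 and *Col2a1* at 7.24. Outside the chondrocyte list they were the neuronal *Map2* at 6.22, the epithelial *Krt8* at 5.87 and the leukocyte *Cd68* at 5.47. The leukocyte *Ptprc*, *Itgam* and *Cd4* and the epithelial *Epcam* lay below that level of the olfactory receptor probe sets. None of the markers of other cell types passed the knock-down test except *Col2a1* of the chondrocyte list. Some fibroblast markers moved with the knock-down as *Itm2a* did or against it. *Pdgfra*, a receptor of platelet-derived growth factor, fell to 7.10 in stimulated knock-down cells, against 8.98 in stimulated wild-type cells, while *Thy1* (8.31 against 6.22) and *S100a4* (9.50 against 8.94) rose. The summed log2 signal of the 8 markers was 81.8 in stimulated knock-down, 80.8 in stimulated wild-type and 81.3 in unstimulated wild-type cells, a sum in which the rises and the fall offset each other. Their part in the *Itm2a* difference was not tested.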

How the data were processed

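Total RNA of 9 cultures was hybridised to Affymetrix Mouse Gene 1.0 ST arrays. The deposited values are log2 signals that the authors made with RMA (version not given in the sources used here), and they were taken as deposited, with no filter on low signal. Of 35557 probe sets, 23410 with at least 1 gene in the platform's annotation were tested (21789 with 1 symbol, 1621 with several), and 12147 are unnamed here. A gene was represented by its probe set with the highest mean over the 9 arrays. The current RefSeq gene table (GRCm38.p6) changed no symbol and served for names and gene order only. A few listed genes were not analysed here.

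The 3 groups were fitted together over all 9 arrays with lmFit and eBayes of limma 3.58.1 in R 4.3.3, with Benjamini-Hochberg adjustment over the 23410 probe sets and a threshold of 0.05. The fit was checked only on simulated arrays with independent noise, which hold no deviations shared by replicate number. Intervals are 95% from the moderated test. P-values measure the spread between cultures of the same lines, and the number of arrays limits the precision. The members and lists were chosen with earlier results of these data known. Genes were named by a rule: the members, *Med17*, up to 6 listed genes per list that passed, *Furin*, *Adam10*, *Sppl2b* and *App*, 5 genes by likeness and 3 neighbours on either side. *Gata3*, *Sox5*, *Acan*, *Bace1*, *Atg13*, *Map1lc3a*, *Cnmd*, *Tnmd*, *Sftpc* and the markers were named after their values were seen.

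The groups share replicate numbers. Deviations of same-numbered arrays from their group means correlated at 0.110 to 0.403 for the TNF-α response and 0.147 to 0.465 for the knock-down difference, and those of differently numbered arrays at -0.402 to 0.249 and -0.392 to 0.160, so that the ranges overlap. What a number marks is not given, and whether the numbers pair the cultures was not settled by these values. The fit behind the printed adjusted p-values and intervals takes no account of the number, except where a block is named. Between knock-down and unstimulated wild-type arrays the same-number correlations were 0.002 to 0.221, and those of differently numbered arrays -0.228 to 0.161. A fit that takes this number as a block was among the alternatives, beside other scalings, sets of probe sets, variance priors and omitted arrays.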

Additional observations from a re-analysis of the deposited data

How the results depend on the processing

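No member passed the TNF-α test under any of the 16 alternatives run. In both comparisons with knock-down arrays, each member's difference moved by less than its own pooled SD within groups. That was the tolerance set for counting a description as kept, and it allows a change of sign in differences near 0. The knock-down difference of *Itm2a* was -4.09 to -3.57, that of *Itm2b* 0.02 to 0.42 and that of *Itm2c* -0.14 to 0.11, and the adjusted p of the TNF-α response stayed at 0.71 or above for each member. Its sign changed in each when single arrays were left out (*Itm2a* -0.16 to 0.36, *Itm2b* -0.33 to 0.14, *Itm2c* -0.22 to 0.11). As each member has 1 probe set, averaging probe sets gave no other value.

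Over all probe sets, 27 passed for TNF-α, against 9 when the other 3 arrays were left out of the model, 13 with all deposited probe sets tested, 41 with only probe sets above the median level and 9 to 23 with 1 array left out. With the replicate block 55 passed for TNF-α and 2108 for the knock-down difference (1395 without it), and no call of a member changed. Against unstimulated wild-type cells, the block added calls, among others, for *Gata3* (0.67, adjusted p = 0.0032), *Atg13* (-0.34, adjusted p = 0.034) and *Map1lc3a* (-0.49, adjusted p = 0.0094). The count for the knock-down difference was 738 to 1596 with 1 array left out, lowest without stimulated wild-type array 1, and 1147 to 1944, against 1932, for stimulated knock-down minus unstimulated wild-type cells, lowest without unstimulated array 1. With each array centred on its median, 68.8% of the calls for the knock-down difference were higher, against 56.3% as deposited. Low signal limits the size of the *Itm2a* difference, since its knock-down mean of 4.03 lies near the level of olfactory receptor genes.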
